A study of Mus musculus with 4 samples.

Results

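The genes followed here encode the receptors that cells use to sense insulin and the insulin-like growth factors (IGFs), together with the substrates of those receptors, 1 ligand and 3 binding proteins. The 10 genes are Igf1r, Insr, Insrr, Igf2r, Irs1, Irs2, Igf1, Igfbp3, Igfbp5 and Igfbp7. They were chosen as a pathway with earlier results of the same arrays known, and every probe whose RefSeq accession belongs to one of them was taken, which gave 13 of the 56605 gene probes on the array (10 of 22916 genes named in this way). The study asked how MOTS-c, a short peptide encoded in mitochondrial DNA, alters the transcriptome of aged pancreatic islet cells. Islets were taken from C57BL/6 mice labelled male and 60 weeks old, dispersed to single cells and cultured with peptide at 10 μM for 24 h. The control group received a scrambled peptide (2 arrays, replicates 1 and 2) and the treated group received MOTS-c (2 arrays, replicates 2 and 3), and the labels name no genetic change in either group. The cells came from littermates, and the labels do not say which animal or how many animals each array holds, so errors measure the spread between these arrays. The arrays carry bulk RNA of all dispersed cells.

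Insulin and IGF1 act through related receptor tyrosine kinases, INSR and IGF1R, which can also pair with each other. The activated receptors phosphorylate the docking proteins IRS1 and IRS2, which pass the signal to phosphatidylinositol 3-kinase (PI3K) and AKT, while adaptors such as SHC and GRB2 lead to RAS and ERK. In beta cells this pathway is known for its part in growth, survival and compensation for insulin resistance, with IRS2 as a main docking protein. IGF-binding proteins hold IGFs in the extracellular fluid and are in turn cut by proteases of the pappalysin family.

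Values are log2 processed spot intensities after quantile normalization of the 4 arrays, and a difference is the mean of the MOTS-c arrays minus the mean of the scrambled arrays on this log2 scale. The standard error (SE) comes from limma, a linear model that pools the spread over all probes. Intensity depends on the probe as well as on the transcript, so levels of different probes were not compared. Probes had to be well above background on 2 or more arrays, of either group, to be tested. Of the 59305 gene spots per array, between 61.6% and 65.0% were well above background and 0 member spots were saturated, and 35087 probes were tested. Between the scrambled arrays the median absolute log2 difference of a probe was 0.16, and between the MOTS-c arrays it was 0.19. Markers of the labelled tissue were present, with 8 of 9 beta cell, 4 of 5 alpha cell and 4 of 4 delta cell marker genes well above background on all 4 arrays. The label for sex was not borne out, since none of the 7 Y-linked probes gave a signal well above background on any array and the Xist probe did on each of the 4.

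Of the 13 member probes, 11 probes of 8 genes were tested. Every probe of Igf1r was higher, and every probe of Insrr, the insulin receptor-related receptor, was lower with MOTS-c, without overlap of the groups. Insr, Irs2, Igf2r, Igfbp3 and Igfbp7 overlapped between the groups, and Irs1 was separated by a narrow margin. No member probe passed an adjusted p under 0.05 in limma, nor did any of the 35087 probes tested (smallest adjusted p = 0.474). 4 of the 11 member probes, 2 of Igf1r and 2 of Insrr, combined an unadjusted p under 0.05 with a difference of at least 1.5-fold, a rule met by 3.53% of all probes tested (1.10% higher and 2.43% lower). The same 4 differed by at least 1.5-fold without overlap of the groups, as 4.59% of all probes did (1.53% higher and 3.06% lower). An unadjusted p under 0.05 of any fold was also found for 4 of the 11, beside 7.85% of all probes. 5 of the 11 had no overlap between the groups, 3 higher and 2 lower, beside 38.0% of all probes tested, 19.4% higher and 18.6% lower. The genes were chosen with this comparison known, so these counts are a description. The median difference over the 11 probes was 0.03, against 0.01 over all probes tested.

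**Figure D1:**
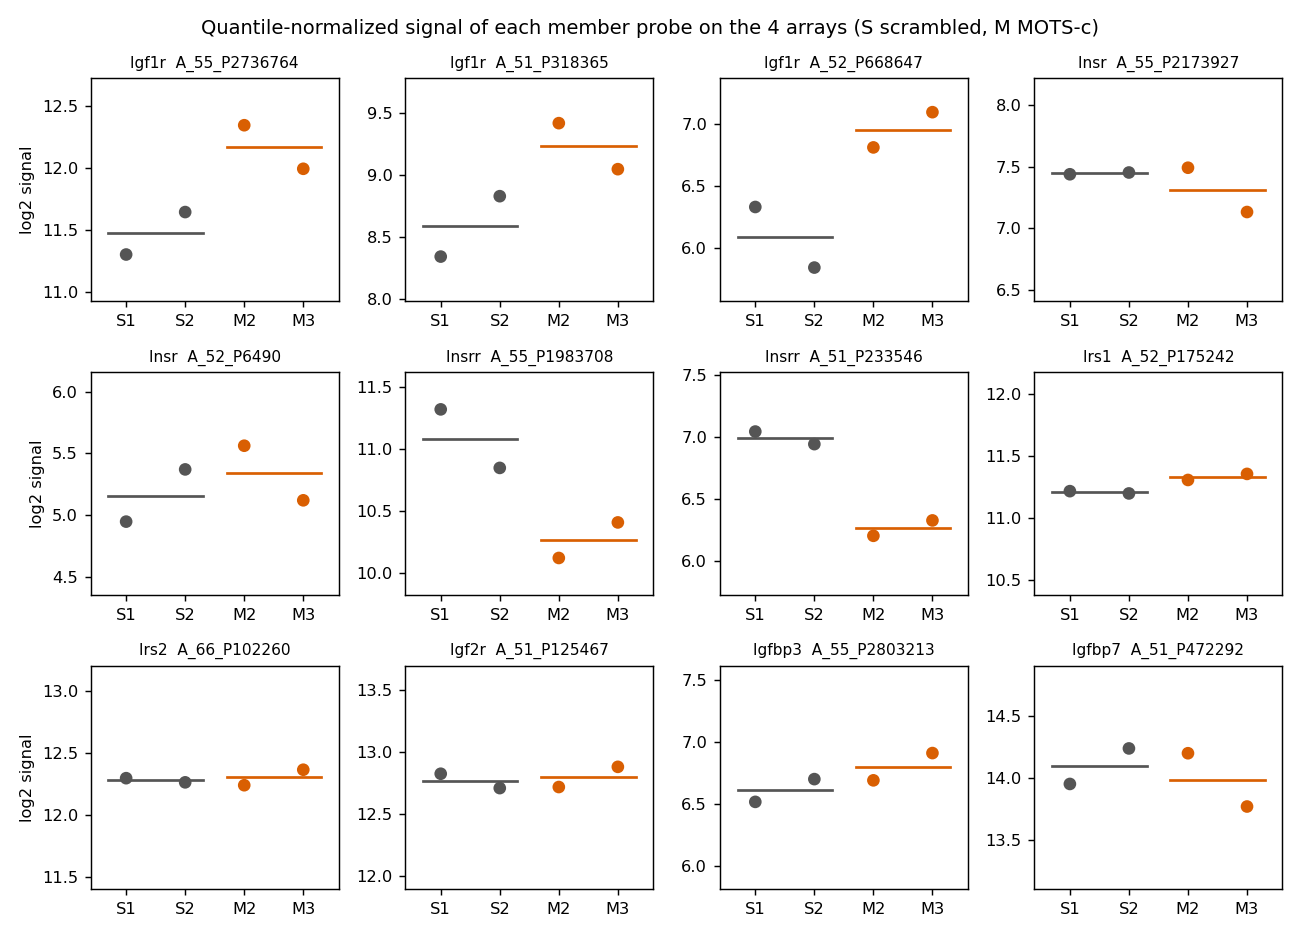
Each panel shows 1 probe of a member gene, with the log2 quantile-normalized intensity on the vertical axis and 1 point for each of the 4 arrays; horizontal bars are group means. The MOTS-c points lie above the scrambled points for the 3 Igf1r probes and below them for both Insrr probes, while the Insr points of the groups overlap.

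Igf1r encodes the tyrosine kinase receptor for IGF1 and IGF2. The brighter probe, A_55_P2736764, stood at 11.30 and 11.64 on scrambled replicates 1 and 2 and at 12.35 and 11.99 on MOTS-c replicates 2 and 3. The difference was 0.70 (SE 0.20, n = 2 per group), a 1.62-fold higher intensity with MOTS-c. The second probe, A_51_P318365, gave 8.34 and 8.83 with the scrambled peptide and 9.42 and 9.05 with MOTS-c. Its difference was 0.65 (SE 0.23), or 1.57-fold, so the 2 probes of the transcript were 0.05 apart. Both placed the 4 arrays in the same order, with scrambled replicate 1 lowest and MOTS-c replicate 2 highest. The gap between the groups' nearest arrays, scrambled replicate 2 and MOTS-c replicate 3, was 0.35 and 0.22 for the respective probes. The scrambled arrays were 0.34 and 0.49 apart for these probes, and the MOTS-c arrays 0.35 and 0.37.

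A further probe, A_52_P668647, carries the accession of a cDNA clone (AK044980) that the gene table used here does not hold, and is called Igf1r in a gene list of the study that was chosen on these arrays. It was dimmer, at 6.33 and 5.84 with the scrambled peptide and 6.81 and 7.10 with MOTS-c, a difference of 0.87 (SE 0.22) or 1.83-fold. The direction was that of the other 2 probes, but the order of the arrays within each group was turned round, with scrambled replicate 2 lowest and MOTS-c replicate 3 highest. Without scrambled replicate 1, the differences of A_55_P2736764 and A_51_P318365 fell short of 1.5-fold, at 0.53 and 0.40, whereas that of A_52_P668647 was 1.11. Without MOTS-c replicate 2 the 3 values were 0.52, 0.46 and 1.01, and without scrambled replicate 2 they were 0.87, 0.89 and 0.62. All 3 probes kept a positive difference whichever array was left out.

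The promoter of Igf1r is shown because this is the receptor gene whose transcript was higher. The 250 bases upstream of its start in RefSeq lie at chr7:67952007-67952256 on the plus strand of GRCm38.p6, with 77.6% G or C. Capitals mark GC boxes, the letters GGGCGG on either strand:

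Igf1r promoter: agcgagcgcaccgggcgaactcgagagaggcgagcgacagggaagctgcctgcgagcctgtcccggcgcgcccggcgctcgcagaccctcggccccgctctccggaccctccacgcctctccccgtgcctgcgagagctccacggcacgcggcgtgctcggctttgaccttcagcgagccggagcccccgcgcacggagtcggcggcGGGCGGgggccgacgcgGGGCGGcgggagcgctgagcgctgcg

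The stretch held 2 GC boxes, beginning 43 and 26 bases upstream of the start, and 32.7% of the 32851 promoters of the same length held at least 1. The core of the antioxidant response element (TGACNNNGC) and of the FOXO site (TGTTTAC), searched on both strands, were not found in it; they occurred in 10.2% and 3.17% of all promoters. Promoter sequence was found for 8 of the 10 genes, all but Insr and Insrr. Among these 8, the antioxidant core was present for Irs1, 122 bases upstream, and Irs2, 51 bases upstream, and the FOXO core for 0. GC boxes were not particular to Igf1r: Igf2r, Igfbp7, Irs1 and Irs2 held 3, 4, 2 and 1. A match to such short letters is a description of the sequence and was not tested as a binding site.

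Insr, the insulin receptor gene, had 2 probes and neither separated the groups. A_55_P2173927 read 7.44 and 7.45 with the scrambled peptide and 7.49 and 7.13 with MOTS-c, a difference of -0.13 (SE 0.17). A_52_P6490 read 4.95 and 5.37 against 5.56 and 5.12, a difference of 0.18 (SE 0.23) in the other direction. In each case MOTS-c replicate 2 was highest and MOTS-c replicate 3 lay below 1 or both scrambled arrays. The signs also depended on single arrays, with a range of -0.31 to 0.05 for the first probe and -0.04 to 0.40 for the second when each array was left out in turn. The second probe was dim, with signals 1.81 to 2.37 times the local background and a spot error of up to 14.6% of its signal.

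Insrr encodes an orphan receptor of the insulin receptor family that is known as a sensor of alkaline pH and does not bind insulin. Probe A_55_P1983708 stood at 11.32 and 10.85 with the scrambled peptide and at 10.12 and 10.41 with MOTS-c. The difference was -0.82 (SE 0.22), which is 1.77-fold lower. Probe A_51_P233546 gave 7.05 and 6.94 against 6.20 and 6.33, a difference of -0.73 (SE 0.13) or 1.66-fold lower. Both probes had scrambled replicate 1 highest and MOTS-c replicate 2 lowest, and their differences were 0.09 apart. The second probe had the closest replicates of the 4 receptor probes that met the 1.5-fold rule, at 0.10 and 0.12 between the arrays of a group. It alone among them met the p and fold rule whichever array was left out, with differences of -0.79 to -0.67, while the brighter probe ranged from -1.06 to -0.58. After the normexp background correction, which starts from unprocessed spot signals, the second probe's difference was -0.42 and the first probe's -0.86.

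Igf2r encodes the cation-independent mannose 6-phosphate receptor, which takes up IGF2 for degradation and has no kinase. Its probe A_51_P125467 was bright and level, at 12.83 and 12.71 with the scrambled peptide and 12.72 and 12.88 with MOTS-c. The difference was 0.03 (SE 0.13), and the groups overlapped.

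**Figure D2:**
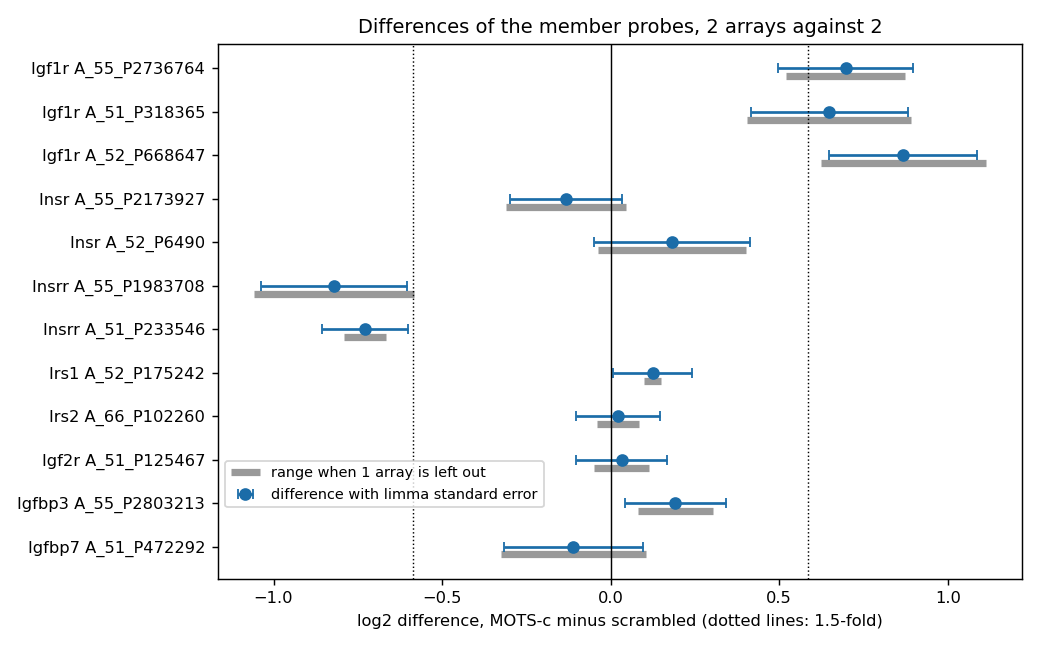
The horizontal axis gives the log2 difference, MOTS-c minus scrambled, of each tested member probe and of the further Igf1r probe; points with capped lines are differences with their SE, grey bars the range when each of the 4 arrays was left out, and dotted lines 1.5-fold. The Igf1r differences lie at 0.65 to 0.87 and the Insrr differences at -0.82 and -0.73, and every other member probe lies between -0.13 and 0.19.

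The docking proteins differed little. Irs1, measured by A_52_P175242, stood at 11.22 and 11.20 with the scrambled peptide and 11.31 and 11.36 with MOTS-c. Its groups did not overlap, but the difference of 0.12 (SE 0.12) was 1.09-fold and about the size of its error. Irs2, measured by A_66_P102260, stood at 12.29 and 12.26 against 12.24 and 12.36, a difference of 0.02 (SE 0.12) with overlap. The signals were 59.0 times the local background or more for Irs1, and 178 times or more for Irs2.

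The ligand gene Igf1 had 1 probe, A_51_P147942, and it was not well above background on any of the 4 arrays. Its spots were 0.860 to 1.24 times the local background, with spot errors of 60.6% to 101% of the signal, so no level and no fold are given. Among the binding proteins, Igfbp3, the main carrier of IGFs in serum, was measured by A_55_P2803213 at 6.52 and 6.70 with the scrambled peptide and 6.69 and 6.91 with MOTS-c. The difference was 0.19 (SE 0.15), and scrambled replicate 2 lay just above MOTS-c replicate 2. Igfbp7, a secreted protein that binds IGFs with low affinity, was measured by A_51_P472292 at 13.95 and 14.24 against 14.20 and 13.77. Its difference was -0.11 (SE 0.21), with the arrays of a group 0.29 and 0.43 apart. Igfbp5, which binds IGFs and extracellular matrix, was well above background on 1 array, MOTS-c replicate 2, where the processed intensity of A_52_P281702 was 36.8. On the other arrays it was 3.66, 3.69 and 11.2, not well above background. Since only 1 of the 2 MOTS-c arrays was well above background, no fold is given.

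Since Igf1 and the IGF-binding proteins are made in many tissues by stromal cells and macrophages, markers of those cells are given beside them. Of 9 mesenchymal markers, 3 were well above background on all arrays, and Col1a1, Col3a1, Pdgfrb, Dcn, Lum and Rgs5 were on none. The summed intensity of the list was 5658 and 5152 with the scrambled peptide and 4878 and 4853 with MOTS-c. Acta2 made up most of these sums, at log2 12.40 and 12.26 against 12.19 and 12.19, a difference of -0.14. Col1a2 differed by -0.30 with overlap, and Pdgfra by -1.05 (limma adjusted p = 0.567), or -0.40 with normexp. Over all 9 markers, dim ones included, 4 were higher and 5 lower with MOTS-c. Of 7 macrophage markers 3 were well above background on all arrays and Adgre1, Lyz2 and Mrc1 on none. Of 7 endothelial markers 3 were, and Cdh5, Kdr and Tie1 were on none. Pecam1 and Plvap differed by 0.18 and 0.01 with overlap, and Esam by -0.43 without overlap (limma adjusted p = 0.578). Vwf, well above background on 3 arrays, differed by -0.44 (limma adjusted p = 0.541), or -0.09 with normexp. Of the acinar markers Cela1 stood at 11.77 and 11.90 with the scrambled peptide and 11.23 and 10.92 with MOTS-c, Ctrb1 was higher on both MOTS-c arrays by 0.33 and Cel differed by -0.14 with overlap, with Prss2, Pnlip, Amy2b and Try4 not well above background on any array. Of the alpha cell markers Gcg and Irx2 were higher on both MOTS-c arrays, by 0.11 and 0.68 (Irx2 by 0.14 with normexp), Ttr differed by -0.27 with overlap, and the summed list was 57758 and 61299 with the scrambled peptide and 62263 and 61335 with MOTS-c. Of 9 beta cell markers 3 were higher and 6 lower with MOTS-c. All 3 higher and 4 of the lower ones did not overlap, beside 19.4% and 18.6% of all probes tested. The lower ones include Ins1 and Ins2, whose probes lie at the top ranks that quantile normalization sets to common values. Also lower was the glucose transporter gene Slc2a2, named after its values were seen. It stood at 5.23 and 5.26 against 3.81 and 4.02, with 3 of 4 arrays well above background. The difference was -1.33 (SE 0.14, limma adjusted p = 0.474), and -0.39 with normexp. Pdx1 differed by -0.28, and Mafa, Nkx6-1 and Iapp by 0.16, 0.12 and 0.07. The part of cell composition in the Igf1r and Insrr differences was not tested, and a smaller share of a cell type cannot be told apart from less transcript per cell in bulk RNA.

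The rest of the pathway was taken from 6 lists of 77 genes, each followed through its brightest probe, and 71 genes were tested. 27 (38.0%) were higher and 44 lower with MOTS-c, beside 52.9% higher over all probes tested. The median difference was -0.04, against 0.01 over all probes tested. 0 of the 71 passed an adjusted p under 0.05 in limma or in the methods' t-test. 7 had an unadjusted limma p under 0.05, 1 higher and 6 lower, beside 7.85% of all probes tested. 5 of them also differed by at least 1.5-fold (1 higher and 4 lower), beside 3.53% of all probes tested. Of the genes counted as lower in both ways, Igfals and Grb10 were well above background on the scrambled arrays alone and so were tested only through the group where they were higher, and these counts are no support for a direction. In 33 of the 71 (46.5%) the groups did not overlap, beside 38.0% of all probes tested. Since no gene passed the adjustment, the adjusted p-values from limma are given only for genes that differed by 0.40 or more, and the others are described by their values.

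**Figure D3:**
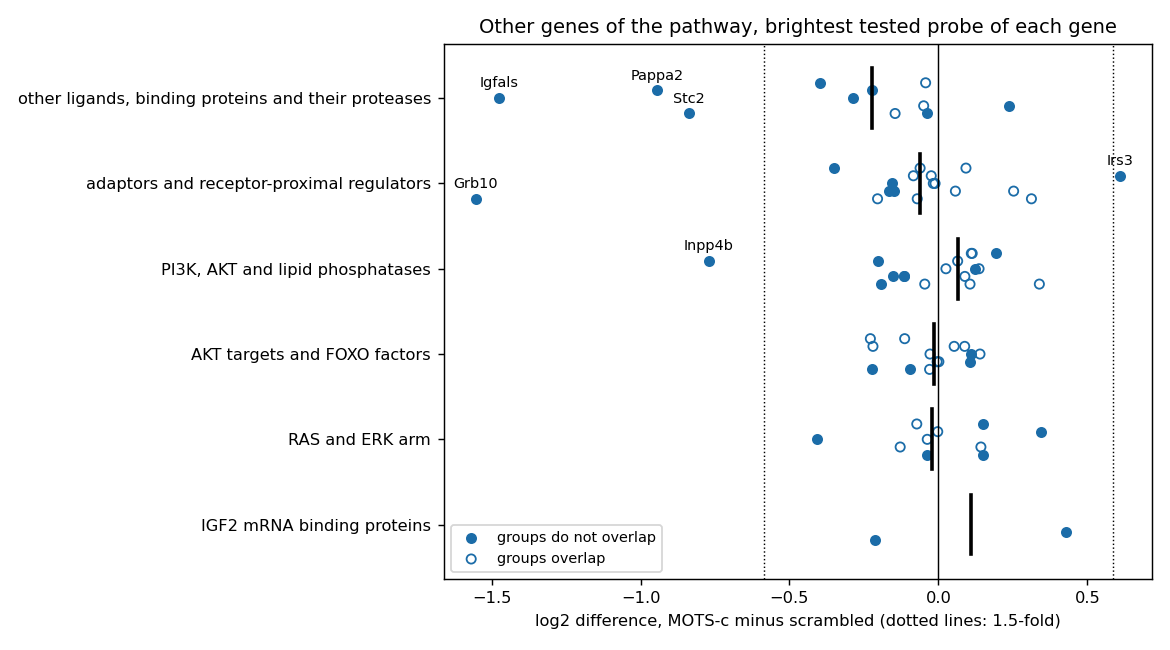
The log2 difference, MOTS-c minus scrambled, is on the horizontal axis for the brightest tested probe of each of 71 pathway genes, in 1 row per list; filled points have no overlap between the groups, open points overlap, the short bar is the list's median and dotted lines mark 1.5-fold. Medians lie between -0.22 for the ligands, binding proteins and proteases and 0.11 for the IGF2 mRNA-binding proteins; Igfals and Grb10, the lowest points of their lists, were not well above background on the MOTS-c arrays.

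In the list of other ligands, binding proteins and proteases the median difference of the 11 tested genes was -0.22, and 10 lay below 0. 8 did not overlap, 7 lower and 1 higher, beside 18.6% and 19.4% of all probes tested. The 10 include Igfals as well as Ins1 and Ins2, whose probes lie at the top ranks that quantile normalization sets to common values (18.54 for Ins2 on 3 of the 4 arrays), so no difference of these insulin genes is given. The gene that was higher was Igf2, the fetal growth factor, at 15.01 and 15.16 with the scrambled peptide and 15.28 and 15.37 with MOTS-c, a difference of 0.24 (SE 0.13). Pappa2, a metalloprotease that frees IGFs by cutting IGFBP3 and IGFBP5, stood at 10.33 and 9.63 against 8.99 and 9.07. The difference was -0.94 (SE 0.26, limma adjusted p = 0.539), and both MOTS-c arrays lay below the lower scrambled array. Stc2, a secreted inhibitor of pappalysins, stood at 8.18 and 8.39 against 8.09 and 6.82, a difference of -0.84 (SE 0.44, limma adjusted p = 0.723) that was -0.20 without MOTS-c replicate 3 and -1.47 without MOTS-c replicate 2. Igfals, which encodes the acid-labile subunit of the serum IGF complex, was named after its values were seen: both scrambled arrays and 0 MOTS-c arrays showed it well above background, so it entered the test only through the group where it was higher. Its difference with normexp was -0.27, and no fold is given because the MOTS-c signals were not well above background.

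Among adaptors and regulators close to the receptors, 17 of 20 genes were tested, with a median of -0.06, and 6 (35.3%) did not overlap, Grb10 among them, beside 38.0% of all probes tested. Irs3, a docking protein related to IRS1 that rodents express, was dim, at 4.55 and 4.57 with the scrambled peptide and 5.27 and 5.06 with MOTS-c. The difference was 0.61 (SE 0.14, limma adjusted p = 0.505), the highest of the 71 genes, but 0.07 with normexp. Socs3, an inhibitor of cytokine and insulin receptor signaling, stood at 11.66 and 11.72 against 11.35 and 11.33, a difference of -0.35 (SE 0.12). Grb14, an adaptor that inhibits the insulin receptor, differed by -0.16 (SE 0.12). Grb10, a related inhibitor, was also named after its values were seen and, like Igfals, was well above background on the scrambled arrays alone. Its difference moved with single arrays, from -0.80 without MOTS-c replicate 3 to -2.31 without MOTS-c replicate 2, and was -0.27 with normexp, so no fold is given.

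All 17 genes of PI3K, AKT and the lipid phosphatases were tested, with a median of 0.06. Inpp4b, which removes a phosphate from a PI3K product, stood at 9.35 and 9.19 with the scrambled peptide and 8.29 and 8.71 with MOTS-c, a difference of -0.77 (SE 0.19, limma adjusted p = 0.521). Its 3 probes ranged from -1.18 to -0.53; the gene is in a list the study chose on these arrays. The regulatory subunits Pik3r2 and Pik3r3 differed by -0.20 and 0.19, each without overlap. The 14 AKT targets and FOXO factors had the narrowest spread, from -0.23 to 0.14. In that list Foxo6 and Tbc1d1 differed by -0.22 and -0.10 and Foxo1 and Gsk3a by 0.11 each, all without overlap. The other Gsk3a probe differed by 0.005.

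In the RAS and ERK arm, with 10 of 10 genes tested, the median was -0.02. Mapk3, which encodes ERK1, stood at 13.50 and 13.52 with the scrambled peptide and 13.11 and 13.10 with MOTS-c, a difference of -0.41 (SE 0.12, limma adjusted p = 0.544) that stayed between -0.42 and -0.40 whichever array was left out. Nras differed by 0.34, with its other probe at 0.06, and Map2k1 by 0.15. Araf differed by -0.04, and its other probe by 0.15 in the opposite direction. Of the IGF2 mRNA-binding proteins, which stabilize transcripts in growing tissue, Igf2bp2 and Igf2bp3 were tested and dim, and differed by -0.21 and 0.43 (the latter with SE 0.23, limma adjusted p = 0.73), and by -0.07 and 0.21 with normexp.

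**Figure D4:**
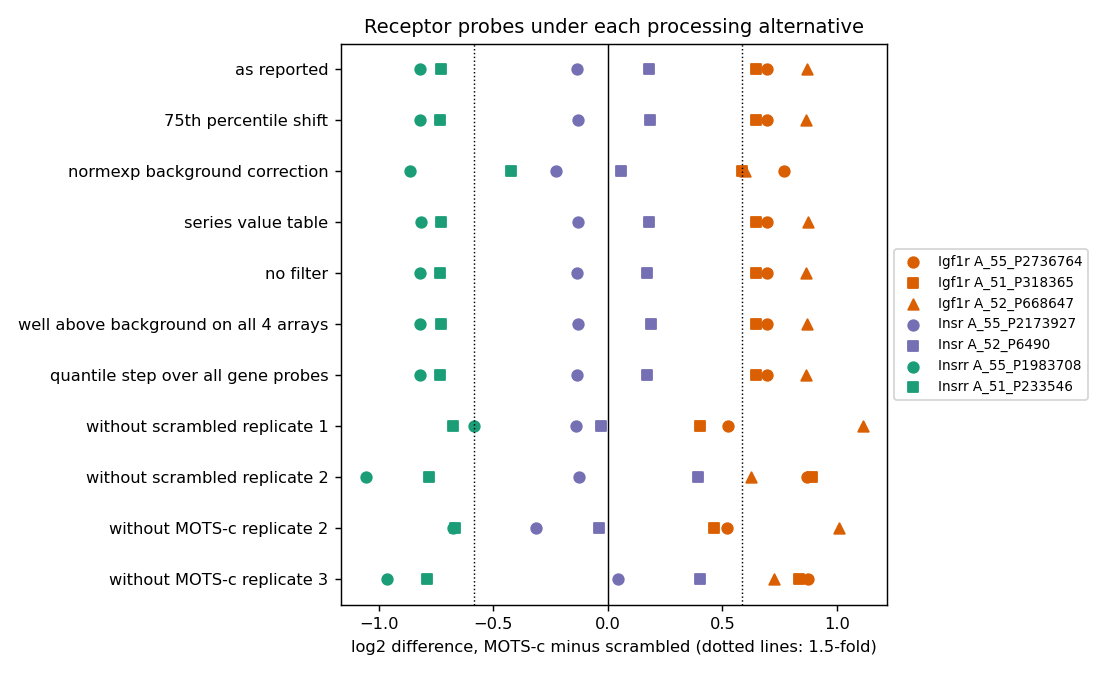
The log2 difference, MOTS-c minus scrambled, is on the horizontal axis for each probe of Igf1r, Insr and Insrr, with 1 row for each way of processing the arrays and for each array left out; dotted lines mark 1.5-fold. The Igf1r probes stay above 0 and the Insrr probes below 0 in each row drawn, and the Insr probes cross 0 when single arrays are left out.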

How the data were processed

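Cy3-labelled RNA was hybridized to 4 one-colour Agilent arrays, which the authors read with Feature Extraction. The deposited intensity of a spot is corrected for its background, with no normalization across arrays. A series table of the authors holds rounded intensity values and served as an alternative. Samples were grouped by their labels. Without control spots (3671 per array) and outlier spots (96 to 131), log2 intensities were averaged per probe. Quantile normalization was run over probes that 2 or more arrays of either group showed well above background, and limma 3.58.1 in R 4.3.3 compared the groups with Benjamini-Hochberg adjustment over 35087 probes (35084 with a value on every array). Residual degrees of freedom were 2, with 2.64 more from limma's prior, and an exact permutation test of 2 against 2 arrays cannot go below p = 0.333. The number of arrays limits the precision. The steps were also tested on simulated data.

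Probes were named from the accession of each probe through the RefSeq gene table of GRCm38.p6 (33006 probes); the files hold no gene name column, which the plan had foreseen for other probes, so 1 name was taken from a list of the study. The array is annotated on another build, so no probe coordinates are given. The members and lists were chosen with earlier results of these data known. All members are named, and from each pathway list up to 2 genes with the largest difference in each direction among brightest probes well above background on all 4 arrays without overlap. A gene that met this rule is not reported here, and Igfals, Grb10, Ins1, Ins2 and Slc2a2 are named beyond it. Alternatives were a 75th percentile shift, normexp (offset 50, on median spot signals), the authors' table, other filters and quantile scope, limma with a trend, the methods' t-test, the mean over probes, and leaving out each array.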

Additional observations from a re-analysis of the deposited data

How the results depend on the processing

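No paired analysis was possible because the groups share 1 replicate number. Counts are of probes with an unadjusted p under 0.05 and at least 1.5-fold, unless stated. Over all probes tested the count was 1239 with the chosen processing, 406 with normexp and 458 with the methods' t-test, which called 1 probe at an adjusted p under 0.05 where limma called 0. Of the member probes 4 met this rule with the chosen processing and 1 with the methods' t-test. The member count was 3 with normexp and 3 without a filter on dim probes. Of the pathway genes 5 met the rule with the chosen processing, 2 with normexp and 3 without that filter. The pathway count was 3 where probes had to be well above background on all 4 arrays, and 2 with the methods' t-test. Leaving out each array in turn gave 1391 to 3299 probes in all (3299 without MOTS-c replicate 2), 1 to 4 member probes, 3 to 6 pathway genes (3 without scrambled replicate 1) and 2 to 3 genes whose probes shared a direction, against 2 with all arrays. Without scrambled replicate 1 or without MOTS-c replicate 2, A_51_P233546 of Insrr was the 1 member probe that met the rule. When 1 array was left out, the remaining array of its group was assumed to vary like the other group. The differences of the member probes kept their sign in 112 of 120 values under the alternatives; the 8 that changed sign came from leaving out 1 array and belonged to Insr, Irs2, Igf2r and Igfbp7. Under normexp 2 differences moved by more than the spread between replicates, A_51_P233546 of Insrr to -0.42 and Irs1 to 0.19. The cause of these shifts was not tested. Igf1, and Igfbp5 on 3 arrays, were too near background to measure.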
